A study of Mus musculus with 9 samples.

Results

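*Osr1* and *Osr2* are a pair of genes, 2 of the 32289 features in each count matrix, chosen by name and followed through the mesenchyme of mouse forelimb buds. They encode odd-skipped related zinc finger transcription factors, nuclear proteins that share a DNA-binding domain. In limbs both are known from the forming synovial joints and from irregular connective tissue, where *Osr1* marks progenitors of the muscle connective tissue, and *Osr2* is also known from palate and tooth development. *Osr1* (ENSMUSG00000048387) spans bases 9570116 to 9581500 of the plus strand of chromosome 12, and *Osr2* (ENSMUSG00000022330) spans bases 35296098 to 35303305 of the plus strand of chromosome 15, in GENCODE M21 on GRCm38.

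The study profiled single cells of forelimb bud pairs at embryonic day E10.75 (37 to 39 somites) by droplet RNA sequencing of 3′ transcript ends, with 3 libraries per genotype from mice on a Swiss Albino background. The design asks which cells change when limbs form 4 digits, and it sets wild-type (Wt) embryos against homozygotes of the alleles *E1C8* (*E1C8* Δ/Δ) or *E1C5* (*E1C5* Δ/Δ). Both alleles lack EC1, an enhancer cluster of *Grem1*, whose secreted product binds bone morphogenetic proteins (BMPs) and blocks them, and each lacks a further element in cis, CRM8 or CRM5. Wt embryos carry neither deletion, and the deletions are in the germ line, so that all cells carry them.

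The 9 libraries held 133086 barcodes, of which 52432 passed the study's filters, 44654 remained after removal of doublets and 36839 were classed as mesenchymal, with 488 to 7133 per library. Median depth in mesenchymal cells was lower in *E1C8* Δ/Δ, with 16106 to 26903 unique molecular identifiers (UMIs) per cell, than in Wt (29484 to 47096) and *E1C5* Δ/Δ (29946 to 42941). The 5 mesenchymal markers, by which these cells were chosen, summed to between 1470 and 1830 CPM (UMIs of a gene per 1000000 UMIs of the same cells) in every library. At most 28 barcodes that passed the filters were shared between 2 libraries. Wt replicate 3 and *E1C8* Δ/Δ replicate 1 were the smallest libraries. Read from *Xist* and from Y-linked genes, 4 mutant libraries were female, and *E1C8* Δ/Δ replicate 3, *E1C5* Δ/Δ replicate 2 and the Wt libraries were male. Wt replicate 1 also held *Xist* at 22.9 CPM, against 153.5 CPM of the Y-linked genes.

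*Grem1*, the gene whose enhancers are deleted, was lower in both mutants. Its level in mesenchymal cells was 43.2, 29.1 and 32.6 CPM in Wt, 11.1, 11.2 and 13.9 CPM in *E1C8* Δ/Δ and 16.8, 16.6 and 25.2 CPM in *E1C5* Δ/Δ libraries. Every mutant library lay below every Wt library.

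*Osr2* was lower in the mesenchyme of both mutants, whereas *Osr1* differed between the mutants. The level of *Osr2* was 47.1, 40.7 and 51.6 CPM in Wt, 6.71, 13.1 and 10.1 CPM in *E1C8* Δ/Δ and 18.3, 14.6 and 9.52 CPM in *E1C5* Δ/Δ libraries. The 6 mutant libraries lay far below the 3 Wt libraries, and the mutants overlapped each other. The means were 46.5 ± 5.48 CPM in Wt, 9.97 ± 3.2 CPM in *E1C8* Δ/Δ and 14.1 ± 4.41 CPM in *E1C5* Δ/Δ (SD, n = 3 each), so that *E1C8* Δ/Δ held 21.5% and *E1C5* Δ/Δ 30.4% of the Wt level.

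With edgeR's quasi-likelihood test, the log2 fold change of *Osr2* between the mean of the mutants and Wt was -1.91 ± 0.21 (SE, adjusted p = 0.00278). In this comparison 1.99% of the 16270 genes tested passed an adjusted p of 0.05, and *Osr2* was rank 21 by size among the 225 genes that fell. *Osr2* also fell in each mutant alone, by 2.19 on the log2 scale in *E1C8* Δ/Δ (adjusted p = 0.00309), where 9.37% of genes were called, and by 1.63 in *E1C5* Δ/Δ (adjusted p = 0.0147), where 1.32% were called. The mutants share the Wt libraries in these contrasts. Without Wt replicate 3 the call in *E1C5* Δ/Δ was lost (-1.57, adjusted p = 0.0556), as it was with embryo sex as a covariate (-1.58, adjusted p = 0.126). The difference in *Osr2* between the mutants themselves, *E1C8* Δ/Δ minus *E1C5* Δ/Δ, was -0.56 ± 0.26 on the log2 scale (SE) and did not pass (adjusted p = 0.199). It ran from -0.808 to -0.288 with single libraries left out and passed in no case.

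Embryo sex moved with genotype. With sex as a covariate the log2 fold change of *Osr2* in both mutants was -1.86 and did not pass (adjusted p = 0.0814), where 0.0246% of genes (4 of 16270) were called. Among the male libraries alone it was -1.86 (edgeR adjusted p = 0.00184). That set holds 3 Wt libraries and 1 library of each mutant, so that each lone mutant library is assumed to vary like the others. The male mutant libraries held 10.1 and 14.6 CPM, against 40.7 to 51.6 CPM in the male Wt libraries. With sex as a covariate *Osr2* still passed in *E1C8* Δ/Δ alone against Wt (-2.14, edgeR adjusted p = 0.0329, 0.781% of genes called), unlike in *E1C5* Δ/Δ. As all Wt libraries were male, this covariate rests on the mutant libraries alone.

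**Figure D1:**
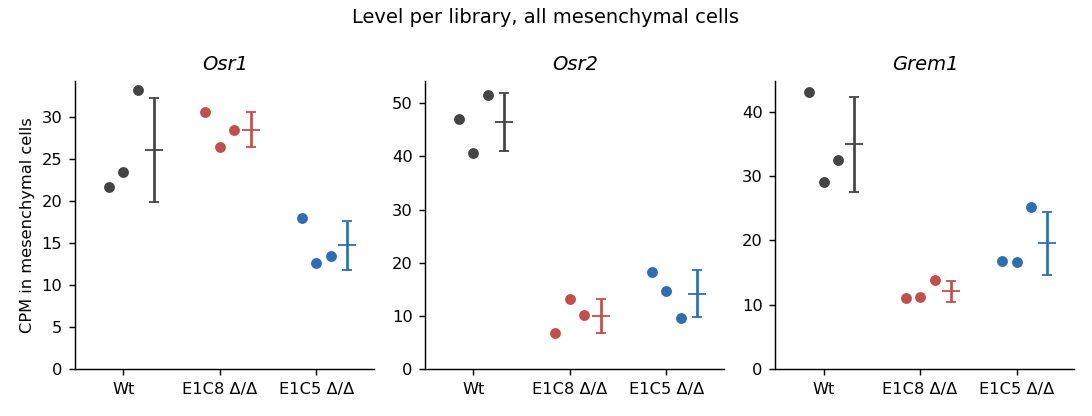
Levels of *Osr1*, *Osr2* and *Grem1* in all mesenchymal cells, in CPM on linear axes that start at 0. Points are libraries and bars are the mean ± SD (n = 3). For *Osr2* the 6 mutant libraries sit between 6.71 and 18.3 CPM, below all Wt libraries, whereas for *Osr1* the *E1C5* Δ/Δ libraries alone lie below Wt.

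The level of *Osr1* was 21.7, 23.4 and 33.2 CPM in Wt, 30.6, 26.4 and 28.5 CPM in *E1C8* Δ/Δ and 18.0, 12.6 and 13.5 CPM in *E1C5* Δ/Δ libraries. Wt and *E1C8* Δ/Δ libraries overlapped, and the *E1C5* Δ/Δ libraries lay below both. The log2 fold change of *Osr1* was -0.32 (adjusted p = 0.273) for both mutants together, 0.11 (adjusted p = 0.744) for *E1C8* Δ/Δ and -0.75 (adjusted p = 0.0681) for *E1C5* Δ/Δ against Wt by edgeR, and none of these passed. The value for both mutants together was -0.13 without Wt replicate 3 (adjusted p = 0.645). The value in *E1C5* Δ/Δ had an unadjusted p of 0.00128, and it passed with DESeq2 (-0.75, adjusted p = 0.00229, 3.57% of genes called), without Wt replicate 1 (-0.88, adjusted p = 0.0382) and without *E1C5* Δ/Δ replicate 1 (-0.96, adjusted p = 0.0394). Between the mutants, *Osr1* was higher in *E1C8* Δ/Δ than in *E1C5* Δ/Δ by a log2 value of 0.86 ± 0.18 (SE, adjusted p = 0.0156), a comparison in which 9.91% of genes were called. This call was lost without *E1C8* Δ/Δ replicate 1 (0.84, adjusted p = 0.0535), *E1C8* Δ/Δ replicate 3 (0.82, adjusted p = 0.0531) or *E1C5* Δ/Δ replicate 2 (0.77, adjusted p = 0.0545). With embryo sex as a covariate the value was 0.87 and passed (edgeR adjusted p = 0.0227, 7.34% of genes called). The male libraries, 1 of each mutant, differed by 1.11, in the same direction, and allow no judgement of the call.

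Summed markers of other cell types in the mesenchymal cells came to at most 19.3 CPM, against at least 1470 CPM for the mesenchymal markers. The cells were gated by these same lists, so this contrast follows from the gate and does not measure purity. For muscle they came to 5.17 to 11.9 CPM in *E1C8* Δ/Δ, 3.93 to 4.16 CPM in *E1C5* Δ/Δ and 3.48 to 6.01 CPM in Wt libraries, with all 5 markers detected in each. Immune markers came to 1.93 to 2.62 CPM in Wt and 0.848 to 1.99 CPM in mutant libraries, with 6 or 7 of 7 detected. Epithelial markers, all 8 of them detected in each library, came to 7.36 to 9.64 CPM in *E1C8* Δ/Δ, 6.04 to 7.16 CPM in Wt and 4.16 to 5.99 CPM in *E1C5* Δ/Δ libraries. The epithelial sums did not overlap between genotypes and had the same order as the means of *Osr1*. Blood markers, 6 of 6 detected, came to 2.2 to 3.37 CPM in *E1C8* Δ/Δ, below all Wt libraries (3.48 to 8.08), and to 2.62 to 8.74 CPM in *E1C5* Δ/Δ. Vessel markers, 8 of 8 detected, came to 15 to 19.3 CPM and glial markers, 4 or 5 of 5 detected, to 4.22 to 6.17 CPM over all libraries. The part of these markers in the differences of *Osr1* and *Osr2* was not tested.

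To set both genes on the axes of the limb bud, mesenchymal cells were placed by marker genes into 13 gates that may share cells. Early limb bud mesenchyme is patterned along 3 axes: *Shh* from the posterior polarizing region, *Hoxa* and *Hoxd* genes from proximal to distal and *Lmx1b* on the dorsal side. Chondrogenic progenitors with *Sox9* and *Col2a1* condense in the core, while *Msx1* marks progenitors at the periphery. A gate's level was used where a library had at least 20 of its cells. Several gate markers themselves change in the mutants, so that a gate need not hold the same cells in each genotype, and sizes of gates were not compared.

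In Wt the 2 genes peaked in different cells. *Osr1* was highest in posterior cells without *Shh* (*Hand2* at 3 or more and *Tbx3* at 1 or more per 10000 UMIs), with 61.0, 65.0 and 89.6 CPM. *Hand2* and *Tbx3* encode transcription factors of the posterior limb bud. The study scored posterior cells of these same samples with *Osr1* and *Hand2*, among others, so that a posterior peak was known beforehand. Next came cells with both *Sostdc1*, which encodes a secreted BMP and WNT modulator, and *Hgf*, a growth factor that guides migrating myoblasts, with 69.9, 44.4 and 65.0 CPM of *Osr1*. Both gates overlapped and stood above all others. *Lmx1b*-high cells followed with 35.0 ± 2.34 CPM (SD, n = 3).

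The remaining 10 gates held between 22.2 ± 11 CPM of *Osr1* in proximal cells (*Gsc* and *Creb5*) and 2.99 ± 2.88 CPM in distal autopod cells (*Hoxa13* and *Hoxd13*, the genes of the future hand plate). Chondrogenic core cells had 12.2 ± 2.62 CPM, and cells at the level of the zeugopod (*Hoxa11* without *Hoxa13*), the future forearm, had 10.6 ± 3.49 CPM (SD, n = 3 each). Along this order 9 of the 12 pairs of neighbours overlapped in their library values. Only the steps from *Sostdc1* and *Hgf* cells to *Lmx1b*-high cells, from these to proximal cells, and from *Lmx1b*-zero to core cells separated all Wt libraries.

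By its mean, *Osr2* was highest in the chondrogenic core of Wt limb buds, with 78.7, 80.1 and 127 CPM. It was followed by *Sostdc1* and *Hgf* cells with 69.5, 75.7 and 67.5 CPM, *Grem1* cells with 83.3, 62.9 and 55.7 CPM and *Lmx1b*-high cells with 62.6 ± 7.34 CPM. Core cells lay above *Sostdc1* and *Hgf* cells in all libraries, but overlapped *Grem1* cells, which held more than core cells in Wt replicate 1. The next gates overlapped. *Lmx1b*-zero cells had 43.6 ± 11.4 CPM and zeugopod-level cells 38.0 ± 9.67 CPM of *Osr2* (SD, n = 3 each). The study, which used clusters rather than marker gates, reports *Osr2* as enriched in a mesenchymal cluster that it sets apart from its chondrogenic ones.

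Posterior cells, in which *Osr1* peaked, held *Osr2* at 19.0, 12.9 and 10.9 CPM, below all zeugopod-level values. The other 6 gates held between 11.1 ± 3.43 CPM in proximal and 3.46 ± 0.616 CPM in distal autopod cells. In this order 8 of 12 pairs of neighbours overlapped. The mesenchymal cells outside the 11 gates other than the pair for *Lmx1b*, 39.3% of all, held 43.9 ± 15.1 CPM of *Osr1* and 50.8 ± 9.26 CPM of *Osr2* in Wt.

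Free RNA gives UMIs in cells that do not express a gene, and blood cells served to gauge it. In the 7 libraries with at least 20 blood cells, *Osr1* lay at 0.336 to 1.59 CPM and was found in 1.25% to 4.18% of cells, and *Osr2* lay at 0.58 to 2.85 CPM in 2.0% to 7.22% of cells. Median depth was 18074 to 39408 UMIs in these blood cells. In all mesenchymal cells the unthinned shares were 18.1% to 34.2% for *Osr1* and 13.4% to 41.2% for *Osr2*. Levels in peripheral and distal autopod cells, such as 1.1 CPM of *Osr1* in peripheral cells of Wt replicate 1, reached down into the range in blood, so that no expression is read from them. *Osr1* reached 5.12 CPM in epithelium and 4.01 CPM in vessels, above blood. Its lowest values in anterior (1.68 CPM), anterior proximal (2.59 CPM), polarizing (2.83 CPM) and zeugopod-level cells (3.6 CPM) lay below these. The part of free RNA in such values was not tested. *Osr2* lay at or below its highest level in blood in 5 of 9 peripheral, 4 of 7 distal autopod and 4 of 7 polarizing values. The same held for 3 of 9 anterior, 2 of 9 proximal, 2 of 9 anterior proximal and 1 of 9 posterior values, all of them from mutants. The highest level of *Osr2* in blood came from Wt replicate 2, and blood of mutant libraries held 0.906 to 1.33 CPM. Against the highest level, a low mutant value of *Osr2* in these gates cannot be told from background, and a difference from Wt is limited by it.

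**Figure D2:**
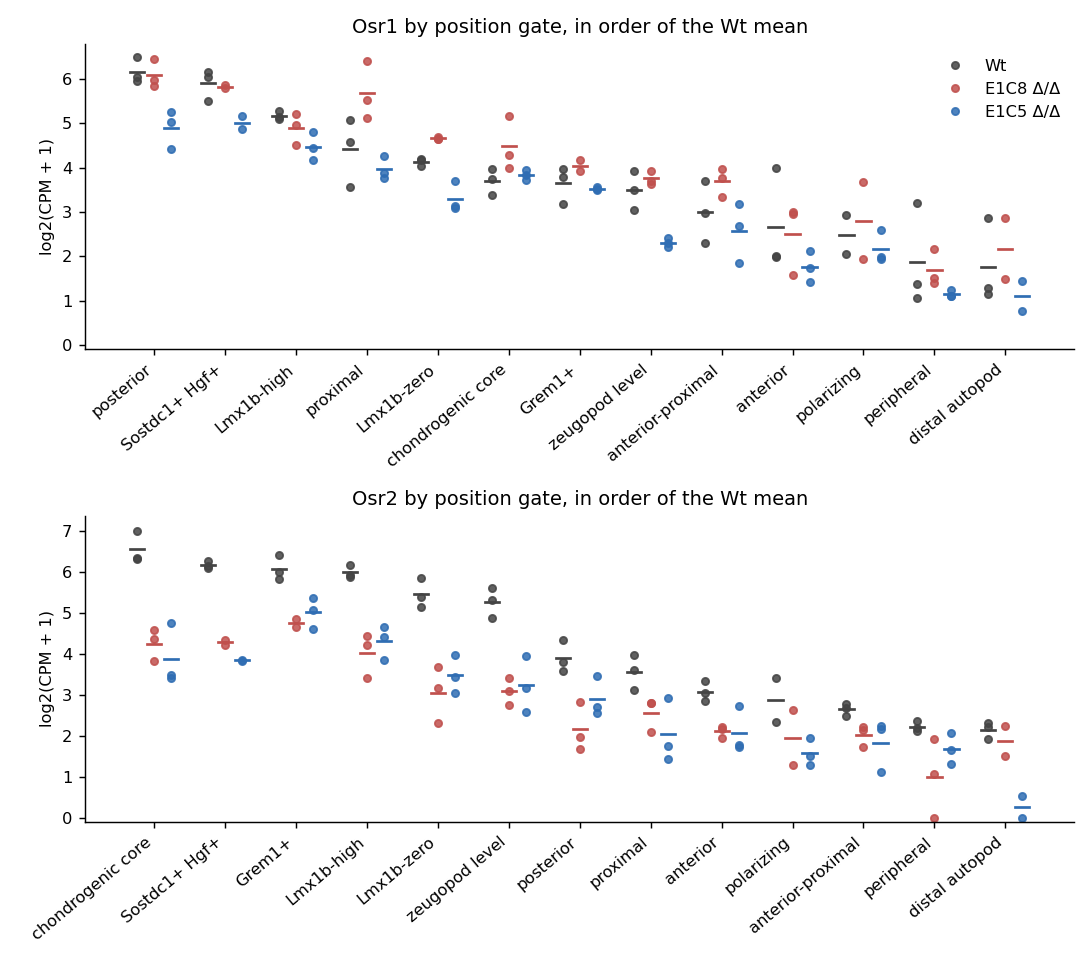
Levels of *Osr1* (top) and *Osr2* (bottom) as log2(CPM + 1) in 13 gates, each panel ordered by the Wt mean. Points are libraries with at least 20 cells and short lines are means. *Osr1* begins with posterior cells and *Osr2* with the chondrogenic core, and mutant points of *Osr2* lie under the Wt points in most gates.

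Differences between positions were tested within libraries, so that each library served as its own control. The difference in log2(CPM + 1) between 2 gates was taken per library, without cells in both gates, and tested by a two-sided exact permutation of signs, with p-values adjusted over 12 tests. Of these, 11 passed. How many of all genes pass such tests between these gates was not counted, so that the count is no trait of this pair.

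Along the anteroposterior axis, *Osr1* was higher in posterior cells than in anterior cells (*Alx4* with little *Hand2*) in 9 of 9 libraries. The difference was 3.40 ± 0.72 on the log2 scale (SD, n = 9, exact permutation adjusted p = 0.0117), with means of 56.5 and 4.89 CPM. Since the study already scored posterior cells of these samples with *Osr1*, this direction was known beforehand and the test is no independent evidence of it. The same difference for *Osr2* was 0.56 ± 0.68, higher in 6 of 9 libraries, and did not pass (exact permutation adjusted p = 0.0508), although it did with cells gated by 1 or more UMIs of each marker (1.17, adjusted p = 0.00521). It also passed without *E1C8* Δ/Δ replicate 1 (0.66, adjusted p = 0.0469), *E1C8* Δ/Δ replicate 3 (0.67, adjusted p = 0.0391) or *E1C5* Δ/Δ replicate 2 (0.64, adjusted p = 0.0469; exact permutation tests). Cells with *Shh* itself held less of both genes than their posterior neighbours without *Shh*, in 7 of 7 libraries. For *Osr1* the difference was -3.05 ± 0.82, with means of 5.03 and 47.5 CPM, and for *Osr2* it was -0.99 ± 0.69, with means of 3.76 and 8.62 CPM (exact permutation adjusted p = 0.017 each, from the smallest p of 0.0156 that 7 libraries allow). Without removal of doublets the latter was -0.49 and did not pass (adjusted p = 0.156).

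Between core and periphery, both genes were higher in chondrogenic core cells in 9 of 9 libraries. *Osr2* differed by 3.27 ± 1.03 (means 43.1 and 2.41 CPM) and *Osr1* by 2.43 ± 0.93 (means 16.2 and 2.40 CPM, exact permutation adjusted p = 0.0117 each). With a pseudocount of 5 CPM the differences were 2.27 for *Osr2* and 1.5 for *Osr1* (exact permutation adjusted p = 0.0117 each). In the core of Wt limb buds, *Osr2* was found in 49.8%, 52.1% and 62.5% of cells before thinning, and *Osr1* in 17.0%, 21.9% and 23.9%.

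Along the proximodistal axis, both genes were low in the future hand plate. Distal autopod cells held less than zeugopod-level cells in 7 of 7 libraries, by 1.54 ± 0.57 for *Osr1* and 2.47 ± 0.85 for *Osr2* on the log2 scale, and proximal cells held more than distal autopod cells, by 2.81 ± 1.16 and 1.32 ± 0.69 (SD, n = 7, exact permutation adjusted p = 0.017 each). With a pseudocount of 5 CPM these differences were smaller, and all passed. Distal autopod minus zeugopod-level cells gave -0.871 for *Osr1* and -1.55 for *Osr2*, and proximal minus distal autopod cells 1.85 and 0.692. *E1C8* Δ/Δ replicate 1 and *E1C5* Δ/Δ replicate 1, with 14 and 15 distal autopod cells, did not enter. *Osr2* was not graded from proximal to distal, since in Wt it was 14.5, 11.2 and 7.64 CPM in proximal cells against 38.7, 28.0 and 47.3 CPM at the zeugopod level, a step that was not tested.

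Along the dorsoventral axis, cells with high *Lmx1b*, which specifies dorsal identity, were compared with cells without *Lmx1b*. *Osr2* was higher in the former in 9 of 9 libraries, by 0.77 ± 0.30 (exact permutation adjusted p = 0.0117). *Osr1* was higher in 8 of 9, by 0.81 ± 0.49 (exact permutation adjusted p = 0.017). The means of the 2 gates were 32.5 and 20.7 CPM for *Osr2* and 28.6 and 16.7 CPM for *Osr1*. Cells without *Lmx1b* were shallower in all libraries, and after thinning to 10000 UMIs the differences were 0.48 for *Osr2* and 0.43 for *Osr1* (exact permutation adjusted p = 0.0117 each).

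**Figure D3:**
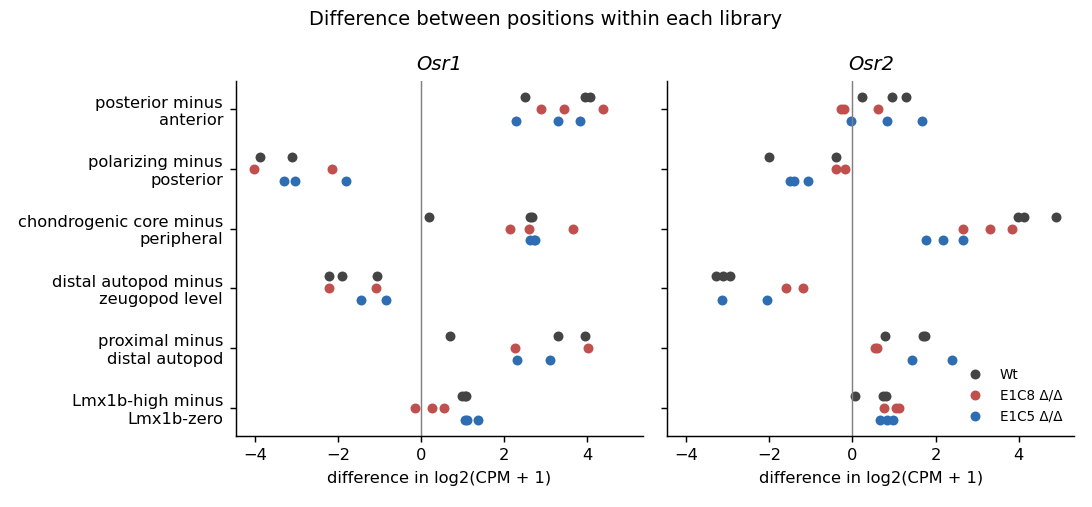
Differences in log2(CPM + 1) between 2 gates within each library, for *Osr1* (left) and *Osr2* (right). Each point is a library and the vertical line marks 0. For *Osr1* all libraries lie above 2 for posterior minus anterior cells, and for *Osr2* the mutants lie closer to 0 than Wt for core minus peripheral cells.

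Whether these differences depended on genotype was tested by exact permutation of the 6 mutant and 3 Wt libraries, and 0 of 12 passed after adjustment. Only the core-periphery difference of *Osr2* had an unadjusted p below 0.05. It was 3.98 to 4.90 in Wt and 1.76 to 3.83 in mutant libraries, without overlap (mutants minus Wt -1.61, exact permutation p = 0.0238, adjusted p = 0.286). The means of *Osr2* in peripheral cells were 3.65 CPM in Wt and 1.3 and 2.27 CPM in the mutants, where log2(CPM + 1) understates a fold change. The other 11 adjusted p-values ranged from 0.393 to 0.829. The smallest p was 0.0119 with 9 libraries, and was 0.0286 and 0.0476 where libraries with few cells dropped out. Adjusted over 12 tests, a lone difference could not go below 0.143, or 0.343 and 0.571 in these smaller sets, so that a single difference could not pass whatever its size.

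Within positions, *Osr2* was lower in mutants in 3 of the 5 gates tested. In the chondrogenic core it was 13.0, 22.8 and 19.4 CPM in *E1C8* Δ/Δ and 9.6, 25.7 and 10.1 CPM in *E1C5* Δ/Δ, against 78.7, 80.1 and 127 CPM in Wt. All mutant libraries lay below all Wt libraries, and *E1C8* Δ/Δ held 19.3% of the Wt mean and *E1C5* Δ/Δ 15.9%. The log2 fold change of both mutants was -2.53 ± 0.25 (SE, adjusted p = 0.00076), in a gate where 1.32% of the 12845 genes tested were called. With sex as a covariate it was -2.09 (adjusted p = 0.0689), and in the male libraries, 1 of each mutant, -2.07 (adjusted p = 0.0501).

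In zeugopod-level cells *Osr2* was 38.7, 28.0 and 47.3 CPM in Wt, 5.72, 9.54 and 7.55 CPM in *E1C8* Δ/Δ and 14.4, 7.9 and 4.99 CPM in *E1C5* Δ/Δ. Again the groups did not overlap. The log2 fold change was -2.10 (adjusted p = 0.00526), where 1.33% of genes were called. It was -2.22 with sex as a covariate (adjusted p = 0.075) and -1.90 without the 2 smallest libraries (adjusted p = 0.0653).

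In posterior cells, with lower levels, *Osr2* was 19.0, 12.9 and 10.9 CPM in Wt, 2.93, 6.01 and 2.18 CPM in *E1C8* Δ/Δ and 9.89, 5.46 and 4.88 CPM in *E1C5* Δ/Δ. *E1C8* Δ/Δ replicate 1 had 2 UMIs in 24 cells. The log2 fold change was -1.49 (adjusted p = 0.0375), where 0.287% of genes were called, and the call was lost when any of 6 libraries was left out (Wt replicates 1, 2 or 3, *E1C8* Δ/Δ replicates 1 or 3, or *E1C5* Δ/Δ replicate 2), with values of -1.26 to -1.62 and adjusted p-values of 0.0512 to 0.128. It was also lost with sex as a covariate (-1.99, adjusted p = 0.159). Anterior cells held 7.47 ± 1.45 CPM of *Osr2* in Wt, 3.32 ± 0.415 CPM in *E1C8* Δ/Δ and 3.45 ± 1.9 CPM in *E1C5* Δ/Δ (log2 fold change -1.13, adjusted p = 0.134, 0.0435% of genes called). In distal autopod cells the log2 fold change was -1.89 (adjusted p = 0.217, 0.453% of genes called), at levels of at most 3.98 CPM in any library. Without *E1C5* Δ/Δ replicate 3 it was -3.58 (adjusted p = 0.332), and in the male libraries, 1 of each mutant, -3.93 (adjusted p = 0.493).

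Across all gates, tested or not, the mean of *Osr2* was below Wt in 13 of 13 gates in each mutant. Outside distal autopod cells it was 18.0% to 59.1% of the Wt mean in *E1C8* Δ/Δ, while *E1C5* Δ/Δ held 15.9% to 62.2%. In distal autopod cells the *E1C5* Δ/Δ values rest on 0 and 1 UMIs of *Osr2* in 31 and 47 cells, at the level of background. All libraries measured, 2 or 3 per gate, lay below all Wt libraries in 11 gates in *E1C8* Δ/Δ and in 13 in *E1C5* Δ/Δ. The gates share cells, so that these counts are not independent, and how many of all genes separate in this way was not counted. Among cells that did contain *Grem1*, *Osr2* was 27.8 and 24 CPM in *E1C8* Δ/Δ replicates 2 and 3 and 32.3, 39.8 and 23.4 CPM in *E1C5* Δ/Δ, below the 55.7 to 83.3 CPM of Wt. Mutants thus held 38.5% and 47.3% of the Wt mean in *Grem1* cells.

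*Osr1* passed in 0 of the 5 gates by edgeR and in 1 by DESeq2. Its unadjusted p by edgeR was below 0.05 in 2 of them, posterior and zeugopod-level cells. There 1204 of 11133 and 2219 of 13486 genes had an unadjusted p below 0.05. The log2 fold changes of *Osr1* by edgeR were -0.68 in posterior (adjusted p = 0.109), -0.43 in anterior (adjusted p = 0.818), 0.37 in core (adjusted p = 0.419), -0.50 in zeugopod-level (adjusted p = 0.188) and 0.01 in distal autopod cells (adjusted p = 0.999). With single libraries left out they ran from 0.239 to 0.56 in core and from -0.746 to -0.322 in zeugopod-level cells. The DESeq2 call was in posterior cells (-0.69, adjusted p = 0.0217, 0.683% of genes called). The sign in anterior cells turned without Wt replicate 3 (0.15), that in core cells turned with gates of 1 or more UMIs (-0.11), and that in distal autopod cells turned under most alternatives.

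The mean of both mutants covers unlike values of *Osr1*, which are given here side by side without a test. In posterior cells *Osr1* was 86.5, 56.1 and 61.5 CPM in *E1C8* Δ/Δ, within and around the Wt values of 61.0 to 89.6 CPM, and 36.9, 20.3 and 31.8 CPM in *E1C5* Δ/Δ, below all Wt libraries. In zeugopod-level cells it was 11.4, 14.3 and 12 CPM in *E1C8* Δ/Δ and 4.33, 3.6 and 3.91 CPM in *E1C5* Δ/Δ, against 7.23, 10.3 and 14.2 CPM in Wt. The *E1C5* Δ/Δ libraries lay below all Wt libraries in 5 of 13 gates, which share cells. How many of all genes separate in this way was not counted.

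In other gates *E1C8* Δ/Δ libraries lay above Wt. In proximal cells *Osr1* was 83.3, 33.9 and 44.7 CPM in *E1C8* Δ/Δ and 32.8, 23.0 and 10.9 CPM in Wt, and in core cells it was 35.0, 18.4 and 14.9 CPM against 12.4, 14.7 and 9.48 CPM. Together with *Lmx1b*-zero cells (24.4 ± 0.493 against 16.6 ± 0.985 CPM, SD, n = 3) these were the 3 gates in which all *E1C8* Δ/Δ libraries exceeded all Wt libraries. Here too the share of all genes that separate was not counted. *E1C8* Δ/Δ replicate 1, with 41 proximal and 73 core cells, had the highest value in both.

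Per cell, the fall of *Osr2* showed in the share of cells with a UMI and in the UMIs of those cells. Cells were thinned to 10000 UMIs, since libraries differed in depth. *Osr2* was then found in 23.6%, 21.8% and 23.1% of Wt mesenchymal cells, in 5.74%, 9.99% and 7.16% in *E1C8* Δ/Δ and in 11.9%, 10.6% and 7.89% in *E1C5* Δ/Δ. The groups did not overlap, and the mutants were 14.0 percentage points lower on average (exact permutation p = 0.0119, the smallest possible; adjusted over 4 shares p = 0.0159). Cells with *Osr2* held 2.01 to 2.55 UMIs of it on average in Wt and 1.15 to 1.45 UMIs in mutant libraries. At least 3 UMIs of *Osr2* were present in 5.51% to 7.41% of Wt and in 0.221% to 1.26% of mutant cells.

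*Osr1* was found in 12.7%, 14.1% and 17.9% of thinned Wt cells, 16.3%, 16.4% and 17.1% in *E1C8* Δ/Δ and 12.9%, 8.56% and 8.89% in *E1C5* Δ/Δ. The mutants overlapped Wt, with a difference of -1.53 points (exact permutation adjusted p = 0.548). The difference ran from -2.64 to -0.0225 points with single libraries left out and from -4.85 to -0.619 points under other settings. Cells with *Osr1* held 1.71 to 1.88 UMIs of it in Wt, 1.72 to 1.83 in *E1C8* Δ/Δ and 1.42 to 1.55 in *E1C5* Δ/Δ.

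Few cells held both genes. Their share was 3.52%, 3.43% and 3.36% in Wt and 1.04% to 1.76% in mutant libraries, lower by 2.17 points (exact permutation adjusted p = 0.0159). Cells with neither gene rose from 62.4% to 67.6% in Wt to 75.4% to 84.3% in mutants, by 13.3 points (exact permutation adjusted p = 0.0159). Both shares depend on that of *Osr2*, so that these tests are not independent of its test. The product of the 2 single shares alone was 3.0% to 4.13% in Wt and 0.702% to 1.63% in mutant libraries. The observed share with both was 0.812 to 1.51 times the product of the 2 single shares across the 9 libraries, above 1 in some and below 1 in others. Before thinning it was 1.03 to 1.61, above 1 in 9 of 9 libraries.

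**Figure D4:**
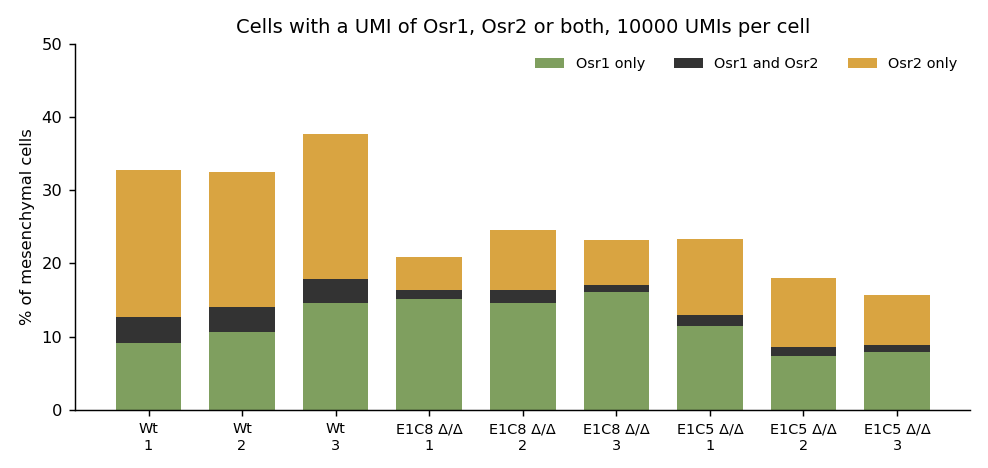
Share of mesenchymal cells with a UMI of *Osr1* alone, *Osr2* alone or both, in percent, for each library after thinning to 10000 UMIs per cell. The *Osr2* part of the bar is largest in the 3 Wt libraries, where 21.8% to 23.6% of cells have *Osr2*, and is smaller in all mutant libraries.

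Outside the mesenchyme, muscle progenitors (*Pax3*, *Lbx1*, *Myf5*, *Pax7* and *Met*) also contained UMIs of both genes. *Osr2* lay at 12.2, 13.2 and 36.3 CPM in Wt muscle cells and at 2.9 to 6.21 CPM in the 6 mutant libraries, and *Osr1* at 12.5 to 23.3 CPM in Wt and 13.3 to 28.7 CPM in mutants. These levels stood above those in blood, and the *Osr2* groups did not overlap, without a test. The contribution of mesenchymal RNA to them was not tested. In libraries with at least 20 cells of a type, epithelium held 0 to 5.12 CPM of *Osr1* and 0.588 to 2.79 CPM of *Osr2*, and vessels held 0 to 4.01 and 0 to 3.58 CPM. Immune cells held 0 to 7.94 CPM of *Osr1* and 0 to 13.7 CPM of *Osr2* in 5 libraries. Both highest immune values came from the 25 cells of Wt replicate 2, and the other 4 libraries held at most 4.4 and 2.64 CPM.

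The genes whose Wt pattern over the 13 gates was most like that of *Osr2*, by Pearson's r of log2(CPM + 1) over 8845 genes, were *Smoc1* (0.955), *Gpt2* (0.922), *Lrrc8d* (0.917), *Fbxo41* (0.898) and *Meox2* (0.889). *Smoc1* encodes a secreted calcium-binding protein and *Meox2* a homeobox transcription factor of limb muscle. For *Osr1* they were *Lsp1* (0.912), *Ccdc102a* (0.902), *Ntf3* (0.901), *Cyb5r4* (0.887) and *Ntm* (0.885), of which *Ntf3* encodes the neurotrophin NT-3. *Osr1* and *Osr2* themselves correlated with r = 0.591. The gates share cells and libraries, so that these values describe the pattern only. Among the 5 genes like *Osr2*, *Smoc1* (log2 fold change -0.51, adjusted p = 0.0496), *Fbxo41* (-0.51, adjusted p = 0.0326) and *Meox2* (-0.47, adjusted p = 0.0458) fell in the mesenchyme for the mean of the mutants and 2 did not pass. *Smoc1* fell in *E1C8* Δ/Δ (-0.92, adjusted p = 0.00541), and its value in *E1C5* Δ/Δ was -0.10 (adjusted p = 0.788). Of the 5 like *Osr1*, 0 passed by edgeR or DESeq2, and 2 had an unadjusted p below 0.05 (3135 of the 16270 genes tested). Of all genes 1.99% were called by edgeR and 6.04% by DESeq2 in this comparison. With embryo sex as a covariate, where edgeR called 4 genes in all, 0 of the 5 like *Osr2* and 0 of the 5 like *Osr1* passed.

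Genes that are known beside *Osr1* and *Osr2* were then read from the same comparison of both mutants with Wt, where the median log2 fold change of all genes was -0.01, and 1.99% of genes were called by edgeR and 6.04% by DESeq2. With embryo sex as a covariate edgeR called 4 genes in all, and 0 genes of any of these 5 lists, so that each call for the mean of the mutants against Wt named from these lists was lost. Of 8 genes of the joint interzone, the cell layer from which joints form, 0 rose and 0 fell by edgeR or DESeq2, and 1 had an unadjusted p below 0.05 (median -0.15). Of all 16270 genes tested, 3135 had an unadjusted p below 0.05. *Gdf5*, the classical interzone marker, had means of only 1.26 CPM in Wt, 1.41 CPM in *E1C8* Δ/Δ and 0.83 CPM in *E1C5* Δ/Δ (log2 fold change -0.18, adjusted p = 0.754). *Wnt9a*, a WNT ligand of the interzone, fell in *E1C5* Δ/Δ alone against Wt (-1.47, adjusted p = 0.0264) and was higher in *E1C8* Δ/Δ than in *E1C5* Δ/Δ (1.30, adjusted p = 0.0186), at levels below 1 CPM. It was the 1 gene of the 8 called in *E1C5* Δ/Δ (1.32% of all genes). Between the mutants 2 of the 8 were higher in *E1C8* Δ/Δ (9.91% of all genes called), *Wnt9a* and *Nog* (0.74, adjusted p = 0.0494). Wt means were 0.539 to 1.59 CPM for *Gdf6*, *Wnt9a*, *Wnt4*, *Barx1* and *Nog*, 3.14 CPM for *Erg* and 50.9 CPM for *Sfrp2*. With most of the list this low, no conclusion on joint progenitors is drawn from it.

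Of 13 connective tissue genes 5 fell and 0 rose for the mean of the mutants (median -0.28). In the single mutants, *E1C8* Δ/Δ had 1 of them lower than Wt by the test (9.37% of all genes called) and *E1C5* Δ/Δ had 4 (1.32%). Between the mutants 3 were higher in *E1C8* Δ/Δ than in *E1C5* Δ/Δ (9.91% of all genes called). *Tcf7l2*, a WNT effector that marks muscle connective tissue fibroblasts, fell from 202 CPM in Wt to 127 CPM in *E1C8* Δ/Δ and 114 CPM in *E1C5* Δ/Δ (log2 fold change -0.73, adjusted p = 0.00693). The others were *Tbx4* (-0.83, adjusted p = 0.0262), *Hic1*, a transcriptional repressor of mesenchymal progenitors (-1.54, adjusted p = 0.0288), and the matrix genes *Lum* (-0.83, adjusted p = 0.0386) and *Col6a3* (-0.52, adjusted p = 0.0485). *Tbx4* was -0.34 in *E1C8* Δ/Δ (adjusted p = 0.269) and fell by 1.32 in *E1C5* Δ/Δ (adjusted p = 0.00947), and the mutants differed (0.98, adjusted p = 0.0121). *Col6a3* was -0.24 in *E1C8* Δ/Δ (adjusted p = 0.302) and fell by 0.80 in *E1C5* Δ/Δ (adjusted p = 0.0185), and the mutants differed here too (0.56, adjusted p = 0.0312). *Tbx5*, with means of 107 to 123 CPM, had a log2 fold change of -0.15 (adjusted p = 0.33).

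Of 12 posterior and Hedgehog genes 2 fell by edgeR, with 6 called by DESeq2 (median -0.36), namely *Hoxd13* (-0.79, adjusted p = 0.0127) and *Hhip*, an antagonist of Hedgehog ligands (-1.16, adjusted p = 0.0127). *Hand2* (-0.31, adjusted p = 0.0772) and *Tbx3* (-0.11, adjusted p = 0.551), the markers of the posterior gate, did not pass for the mean of the mutants. By edgeR *Hand2* fell in *E1C8* Δ/Δ alone against Wt (-0.36, adjusted p = 0.0407), where 3 of the 12 fell (9.37% of all genes called). Its value for *E1C5* Δ/Δ was -0.26 (adjusted p = 0.241), with 2 of the 12 lower than Wt by the test (1.32%). Of 9 cartilage genes tested among 10 listed, *Col2a1* alone fell by edgeR (-0.72, adjusted p = 0.0491), with 3 called by DESeq2, and *Sox9* had a value of -0.40 (adjusted p = 0.124). *Col2a1* was -0.38 in *E1C8* Δ/Δ (adjusted p = 0.245) and fell by 1.07 in *E1C5* Δ/Δ (adjusted p = 0.0239), and the mutants differed (0.69, adjusted p = 0.0467). Against Wt 2 of the 9 cartilage genes fell in *E1C5* Δ/Δ (1.32% of all genes called), *Col2a1* and *Col9a3* (-1.85, adjusted p = 0.0419). In *E1C8* Δ/Δ edgeR called 0 of the 9 (9.37% of all genes), with 2 at an unadjusted p below 0.05 (4208 of 16270 genes). Between the mutants 3 of the 9 were higher in *E1C8* Δ/Δ (9.91% of all genes called).

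A last list held 7 genes taken from the study's and earlier results on the *Osr2*-rich mesenchymal cells. In the study these are a mesenchymal cluster set apart from its chondrogenic clusters, not the core gate used here. The list was chosen on these same samples and is no independent evidence of a direction. Of these genes 4 fell for the mean of the mutants by edgeR (5 were called by DESeq2): *Fmn1*, the neighbour of *Grem1* (-1.37, adjusted p = 0.0049), *Grem1* (-1.16, adjusted p = 0.00448), *Fgf18*, a growth factor of skeletal progenitors (-1.01, adjusted p = 0.00693), and *Smoc1*. The log2 fold change of *Osr2*, -1.91, was larger in size than those of all 7. *Lmx1b* had a value of -0.00138 (adjusted p = 0.996), and *Wnt11* rose in *E1C8* Δ/Δ alone against Wt (0.99, adjusted p = 0.012).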

How the data were processed

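The authors deposited raw UMI counts per feature and barcode from Cell Ranger 6.0.1 (build mm10), before their filters. Counts were used without normalization. The study's filters on cells were applied (over 2500 genes, under 200000 UMIs, under 10% mitochondrial UMIs), and doublets were scored against simulated ones and removed at 0.8% per 1000 barcodes. Mesenchymal cells had UMIs of at least 3 of 5 markers, and of fewer than 3 of any other lineage list. Gates used UMIs per 10000.

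Sums of UMIs per library were tested by edgeR 4.0.16 (filterByExpr, TMM, quasi-likelihood, Benjamini-Hochberg) in R 4.3.3, without X and Y genes. DESeq2 1.42.0 was an alternative. On simulated data for both mutants against Wt over 16270 genes, 67.5% of 200 genes changed by a log2 value of 1 were recovered, with 16 false calls. CPM values are descriptive and cover sums over cells. Members, gates and lists were chosen with earlier results of these data known. The genes named were members, markers, listed genes and, for each member, the 5 genes closest in Wt gate pattern. Leaving out small libraries, and male libraries alone, were chosen after seeing the data. Libraries were biologically independent replicates per the study. No sequence was used here.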

Additional observations from a re-analysis of the deposited data

Results flagged for a closer look

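*Osr1* differed between the mutants in all mesenchymal cells, with a log2 value of 0.86 for *E1C8* Δ/Δ minus *E1C5* Δ/Δ (edgeR adjusted p = 0.0156). It was picked out because the effects of the 2 alleles on the same gene differed by a test of the difference itself. All 3 *E1C8* Δ/Δ libraries (26.4 to 30.6 CPM) lay above all 3 *E1C5* Δ/Δ libraries (12.6 to 18.0 CPM).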

How the results depend on the processing

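Log2 fold changes of *Osr2* in all mesenchymal cells kept their direction under every alternative, from -2.0 to -1.75 for both mutants against Wt, with each library left out from -2.05 to -1.78. Calls lost with embryo sex as a covariate were those of *Osr2* for both mutants in mesenchyme (-1.86), *E1C5* Δ/Δ (-1.58), posterior (-1.99), core (-2.09) and zeugopod-level cells (-2.22). Without the 2 smallest libraries the *Osr2* calls in *E1C5* Δ/Δ (-1.57), posterior (-1.60) and zeugopod-level cells (-1.90) were lost. The shares of cells with *Osr2* (-13.2 points), both genes (-2.18) and neither (11.6) each had an exact permutation adjusted p of 0.0635. With 5 mutant and 2 Wt libraries the smallest p is 0.0476. A share could then pass only with all 4 shares at this p, so that no loss of a call is read from it. The male libraries, with 1 of each mutant, gave -2.07 for *Osr2* in the core and 1.11 for *Osr1* in *E1C8* Δ/Δ against *E1C5* Δ/Δ, neither of which passed, and such lone libraries cannot show that a call is lost. With cells of more than 1000 genes *Osr2* in posterior cells did not pass (-1.52).

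Calls gained were those of *Osr1* in *E1C5* Δ/Δ with DESeq2 (-0.753), no filter on low counts (-0.737), no doublet removal (-0.768) and more than 1000 genes (-0.79), *Osr1* in posterior cells with DESeq2 (-0.687) and no filter (-0.683), *Osr2* in anterior cells with no filter (-1.16) and gates of 1 or more UMIs (-1.55), and *Osr2* in distal autopod cells with no doublet removal (-2.89) and gates of 1 or more UMIs (-1.71). *Osr1* turned in anterior cells without the 2 smallest libraries (0.124) and in core cells with gates of 1 or more UMIs (-0.107). In distal autopod cells, where few UMIs remain, it turned from 0.01 to -0.278 (DESeq2), -0.0484 (no filter), -0.45 (replicate block), -1.12 (sex), -1.01 (male libraries), -0.536 (no doublet removal), -0.0192 (mixed-lineage cells kept), -0.21 (more than 1000 genes) and -0.848 (gates of 1 or more UMIs).

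Between positions, the difference of *Osr2* from posterior to anterior cells passed with mixed-lineage cells kept (0.579), gates of 1 or more UMIs (1.17) and a pseudocount of 5 CPM (0.375), and that from polarizing to posterior cells was lost with no doublet removal (-0.494). Genotype differences of positions that turned, none of them called, were *Osr1* in distal autopod minus zeugopod-level cells (-0.12 with no doublet removal, -0.77 thinned, -0.309 with 1 or more UMIs), *Osr2* in proximal minus distal autopod cells (0.457 with no doublet removal, 0.188 with 1 or more UMIs), *Osr2* in posterior minus anterior cells (0.0171 thinned, 0.0842 with 1 or more UMIs), *Osr1* in polarizing minus posterior cells (-0.559 thinned, -0.0245 with 1 or more UMIs), and, without the 2 smallest libraries, *Osr1* in core minus peripheral (-0.0817) and proximal minus distal autopod cells (-0.694). The causes were not tested.

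Values whose call or direction changed when single libraries were dropped had the following ranges. In mesenchyme, *Osr1* ran from -0.0165 to 0.295 in *E1C8* Δ/Δ and from -0.961 to -0.563 in *E1C5* Δ/Δ against Wt, and from 0.751 to 1.07 between the mutants, and *Osr2* in *E1C5* Δ/Δ from -1.90 to -1.38. For both mutants, *Osr2* ran from -1.86 to -1.26 in posterior cells, and *Osr1* from -0.895 to 0.151 in anterior and from -0.602 to 0.28 in distal autopod cells. The posterior minus anterior difference of *Osr2* ran from 0.425 to 0.669. Genotype differences of positions ran from -0.645 to 0.129 (*Osr1*, posterior minus anterior), -0.527 to 1.08 (*Osr2*, polarizing minus posterior), -0.694 to 0.922 (*Osr1*, proximal minus distal autopod) and -0.549 to 0.0646 (*Osr2*, the same). In distal autopod cells *Osr1* and *Osr2* did not pass the filter on low counts without Wt replicate 3 or without the 2 smallest libraries, nor did *Osr2* with more than 1000 genes, so that these gave no value.

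The number of genes called for both mutants in mesenchyme, 324, ranged from 4 to 983, and those of the other 8 comparisons also moved by more than 1.5 times. Samples with the same replicate number did not deviate together (r from -0.467 to 0.0887), so the numbers do not pair the libraries. Pairs of unlike number ranged from -0.397 to 0.62, and no other grouping was used as a block. With a replicate block, *Osr2* in mesenchyme was -1.93 (adjusted p = 0.0138) and 80 genes were called. Apart from the sign in distal autopod cells it changed no call or direction of *Osr1* or *Osr2*.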
